A study of Mus musculus with 104 samples.

Results

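The striatum of 2-month-old BAC-CAG mice was compared, gene by gene, with that of their WT littermates. The libraries were chosen by the genotype, tissue and age in the labels, which gave 12 of the 104 libraries of the series, 6 BAC-CAG and 6 WT. BAC-CAG mice (genotype Tg) carry the human huntingtin gene with an expanded CAG repeat on a bacterial artificial chromosome, and WT mice lack it. All mice were of the FvB strain and were perfused with PBS before dissection. By the labels each genotype had 3 females and 3 males, and each library came from 1 animal. Beside them stand the striatum at 6 and 12 months (8 BAC-CAG and 8 WT libraries at each age), the cortex at 2 months (6 and 6, from 11 of the same animals and 1 other per tissue) and the 12-month striatum of BACHD mice, a second line with human huntingtin on a BAC (4 and 4). The human gene in such lines is driven by its own regulatory sequence and is not limited to striatal neurons, and the mouse Htt gene remains in place. BAC-CAG is 1 transgenic line, so that what it does at its insertion site is shared by all its mice. Mice of different ages are different animals, so that age and cohort cannot be told apart.

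Huntington's disease is caused by an expanded CAG repeat in the first exon of the huntingtin gene, read as a run of glutamines. The striatum is the brain region it damages most. Most striatal neurons are GABAergic projection neurons, which receive cortical glutamate input and dopamine, pass dopamine signals on through cAMP, and fall into a direct pathway (Drd1, Tac1, Pdyn) and an indirect pathway (Drd2, Adora2a, Penk). In mouse models, lower RNA of genes that define these neurons is a known change that builds up with age.

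The site that the transgene alters is shown here by its mouse counterpart, since it defines the genotype. The coding sequence of mouse Htt begins in exon 1 at chr5:34761907-34762056 (GRCm38, plus strand, GENCODE vM21). Capitals mark the glutamine codons 18 to 24, which are 7 codons, 6 CAG and 1 CAA, with a longest unbroken run of 4 CAG.
Htt: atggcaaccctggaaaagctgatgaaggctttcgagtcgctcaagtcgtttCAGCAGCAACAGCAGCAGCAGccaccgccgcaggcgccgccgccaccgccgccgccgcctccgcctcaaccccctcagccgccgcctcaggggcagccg
The transgene holds a long run of CAG at the matching place in the human gene. The deposited counts name no human gene, so that human and mouse huntingtin RNA were not measured separately.

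Libraries held between 31951552 and 47620832 counts. Markers of striatal projection neurons summed to 21112 to 26390 CPM (counts scaled to the TMM-adjusted library size) in BAC-CAG and to 22381 to 29400 CPM in WT libraries. Hox genes, which the forebrain lacks, summed to at most 0.401 CPM. Some libraries stood apart. WT replicate 2, labelled female, held Y-linked counts of 42.6 CPM, against at most 0.232 CPM in the other females and 164.1 to 185.9 CPM in males, and the highest cortical neuron score. The same library held 887.4 CPM of Xist, the X-inactivation transcript, against at most 2.34 CPM in males. How both came to be in 1 library was not tested. BAC-CAG replicate 3 held 1349 CPM of Ttr, the choroid plexus transthyretin gene, against 7.32 to 63.8 CPM elsewhere. WT replicate 4 held the highest thalamic score. WT replicates 5 and 6 had more myelin RNA, with Mbp at 8918 and 7051 CPM against 2960 to 4620 CPM in the other 10 libraries. The first number of the animal tag in the titles, whose meaning the labels do not give, was 33 or 34 in all 6 BAC-CAG and 3 WT libraries, 37 in WT replicate 4 and 40 in WT replicates 5 and 6. Libraries tagged 33 or 37 were female and those tagged 34 or 40 male, with WT replicate 3 the only WT library tagged 34. Values in males alone and the test between sexes therefore also carry any difference between tags 34 and 40. Results are therefore given with all 12 libraries and, where they move, within tags 33 and 34 (6 BAC-CAG, 3 WT), without the first 3 named libraries, or without the 2 tagged 40. Within tags 33 and 34 the WT females are replicates 1 and 2, and the male comparison rests on WT replicate 3 alone.

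Msantd1 rose in BAC-CAG striatum at 2 months and was the only gene of 17923 tested to pass the threshold of 0.05 after adjustment over all genes (0.00558% called by edgeR's quasi-likelihood test). Msantd1 encodes a protein with a Myb/SANT-like DNA-binding domain and is the next gene after Htt on the chromosome. Its level was 12.1, 16.1 and 29.7 CPM (lowest, median and highest of 6) in BAC-CAG libraries and 3.02, 3.47 and 4.26 CPM in WT libraries. Every BAC-CAG library lay above every WT library, and the highest value was that of the male BAC-CAG replicate 4. The log2 change (BAC-CAG minus WT) was 2.32 (SE 0.15, edgeR adjusted p = 1.3e-05). It was 2.08 in females alone and 2.52 in males alone, and 2.33 within tags 33 and 34. In the other comparisons the log2 change of Msantd1 was 2.16 (SE 0.07) at 6 months, 2.44 (SE 0.22) at 12 months, 2.14 (SE 0.21) in 2-month cortex and 3.45 (SE 0.22) in BACHD striatum. Msantd1 passed the threshold in all 4, among 2 genes called at 6 months (0.0113%), 64 at 12 months (0.351%), 1 in cortex (0.00563%) and 6 in BACHD striatum (0.0378%).

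Msantd1 lies at chr5:34908012-34923839 (GRCm38, plus strand) and Htt at chr5:34761740-34912534. Of 2905 exonic bases of Msantd1, 96 lay inside the span of Htt, none of them in an Htt exon, and the RefSeq start of Msantd1 lay 3381 bases beyond the end of Htt. Htt itself was at 201.2, 209.8 and 221.7 CPM in BAC-CAG and at 173.0, 200.9 and 210.2 CPM in WT libraries. These ranges overlapped, and the lowest 2 values were those of WT replicates 5 and 6. The log2 change of Htt was 0.10 (SE 0.05, edgeR adjusted p = 0.75), and 0.03 within tags 33 and 34. Of the 15 genes in the list of Htt and its neighbours 14 were tested, 7 of them higher and 7 lower, with Msantd1 the 1 called. Grk4, a G-protein-coupled receptor kinase gene on the other side of Htt, had a log2 change of -0.02 (SE 0.10). Rgs12, a regulator of G-protein signalling beyond Msantd1, had 0.09 (SE 0.12), and Add1, which encodes the cytoskeletal protein adducin, had -0.08 (SE 0.04). Whether RNA read from the human transgene was counted under mouse genes was not tested.

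**Figure D1:**
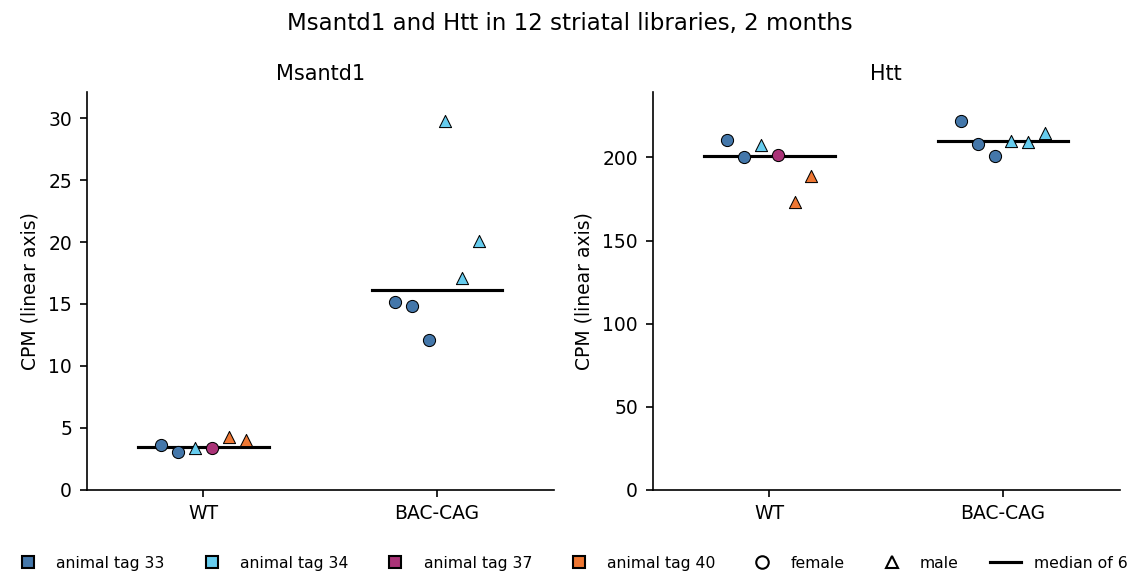
CPM (linear axis from 0) of Msantd1 and Htt in the 12 striatal libraries at 2 months, 1 point per library, with colour for the animal tag, shape for sex and a bar at the median of 6. Msantd1 is at 12.1 CPM or more in every BAC-CAG library and at 4.26 CPM or less in every WT library, while the Htt values of the genotypes overlap.

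No other gene passed edgeR's test. At an unadjusted p under 0.05 there were 1106 genes (6.17%), 549 lower (3.06%) and 557 higher (3.11%). Over all tested genes 9503 had a negative log2 change (53.0%) and 8420 a positive one (47.0%), with a median of -0.006. DESeq2, the other count test, called 6 of 30581 genes (0.0196%), namely Msantd1, Actn2, Pkp2, Oprk1, Phex and Fam188b2-ps. Beyond Msantd1 the values of the genes with the smallest p are therefore given as measured, without a call by edgeR. The 6 genes with the smallest p among those lower were Actn2, Pkp2, Oprk1, Cdk19, Pigm and Odf4.

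Actn2 encodes alpha-actinin 2, an actin crosslinker that in projection neurons sits in dendritic spines. It was at 102.9, 129.8 and 147.4 CPM in BAC-CAG and at 156.1, 181.5 and 210.8 CPM in WT libraries, without overlap. Genes whose genotypes did not overlap numbered 38 of all tested (0.212%). The log2 change of Actn2 was -0.50 (SE 0.08, edgeR adjusted p = 0.43, DESeq2 adjusted p = 0.00043), and it was -0.49 within tags 33 and 34. The gene is on chromosome 13. A stretch of 222 bases upstream of its start is shown because Actn2 was the lower gene with the smallest p and no overlap (chr13:12340761-12340982, GRCm38.p6, minus strand, RefSeq). Capitals mark CACGTG, a motif that reads the same on both strands.
Actn2: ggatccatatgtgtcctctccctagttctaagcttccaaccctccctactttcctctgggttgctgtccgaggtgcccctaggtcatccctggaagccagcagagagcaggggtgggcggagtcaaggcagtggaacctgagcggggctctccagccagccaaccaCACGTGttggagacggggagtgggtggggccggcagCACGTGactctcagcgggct
The stretch held 2 matches. Of 32851 RefSeq promoters 5.06% held at least 1 match in a window of the same length and 0.32% held at least 2. Odf4 and Phex held 0 in theirs, and no other lower gene had an entry. A match is letters in a sequence and was not tested for function.

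Pkp2 encodes plakophilin 2, a protein of cell junctions. It was at 1.46, 2.29 and 3.03 CPM in BAC-CAG and at 2.50, 4.64 and 5.92 CPM in WT libraries. The groups overlapped through WT replicate 5, the lowest WT library. The log2 change was -0.99 (SE 0.21, edgeR adjusted p = 0.75, DESeq2 adjusted p = 0.042), and it was -1.31 within tags 33 and 34. Oprk1, the kappa opioid receptor that binds dynorphin, was at 19.8, 22.7 and 28.4 CPM against 26.8, 31.9 and 43.5 CPM. Its log2 change of -0.53 (SE 0.12, DESeq2 adjusted p = 0.048) became -0.31 within tags 33 and 34, and the 2 highest WT values were those of replicates 5 and 6. Phex, an endopeptidase gene on the X chromosome, was at 2.97, 3.67 and 5.21 CPM against 4.85, 6.55 and 12.7 CPM, with the highest value in WT replicate 4 and an overlap through 1 library of each genotype. The log2 change of Phex was -0.89 (SE 0.22, edgeR adjusted p = 0.75, DESeq2 adjusted p = 0.048).

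Cdk19, a kinase of the Mediator complex, was at 108.2, 123.6 and 131.1 CPM in BAC-CAG and at 129.4, 145.0 and 157.6 CPM in WT libraries. Only the lowest WT library reached into the BAC-CAG range, and the log2 change was -0.25 (SE 0.05). Odf4, named for the outer dense fibre of sperm tails, was low in both groups, at 0.803, 0.945 and 1.12 CPM against 1.21, 1.51 and 1.91 CPM, without overlap. Its log2 change was -0.64 (SE 0.15). Pigm, a mannosyltransferase of GPI anchor synthesis, had a log2 change of -0.31 (SE 0.07). For these 3 genes the edgeR adjusted p was 0.75 each and DESeq2 made no call.

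The same genes were then read in mice that share no animal with the 2-month cohort. All 6 were lower at 6 months, where 50.7% of genes were, and 5 of 6 at 12 months, where 48.9% were. Their genotypes did not overlap in 2 of 6 at 6 months (0.0169% of all genes were lower without overlap) and in 4 of 6 at 12 months (0.121%). In BACHD striatum 5 of 6 did not overlap (1.66%). Pkp2 had log2 changes of -1.03 (SE 0.15), -1.01 (SE 0.10) and -1.59 (SE 0.09) at 6 months, at 12 months and in BACHD striatum, and passed edgeR's threshold in each. Actn2 had -0.48 (SE 0.08), -0.62 (SE 0.09) and -0.72 (SE 0.14). Cdk19 had -0.33 (SE 0.06), -0.34 (SE 0.04) and -0.45 (SE 0.07), and Odf4 had -0.60 (SE 0.13), -1.28 (SE 0.20) and -0.95 (SE 0.15). Pigm had -0.03 at 6 and 0.08 at 12 months and was the gene not lower at 12 months, while Oprk1 was lower at both ages. The median of the 6 was -0.41 at 6 months and -0.48 at 12 months. Phex, which is not among the 6, had -0.81 at 6 months and -1.13 at 12 months. In the cortex of the 2-month mice, which are mostly the same animals, the log2 change was 0.00 (SE 0.11) for Actn2, 0.12 (SE 0.04) for Cdk19, -0.25 (SE 0.22) for Pkp2 and -0.12 (SE 0.34) for Odf4. There 4 of the 6 were lower (median -0.10), and Phex had -0.55.

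**Figure D2:**
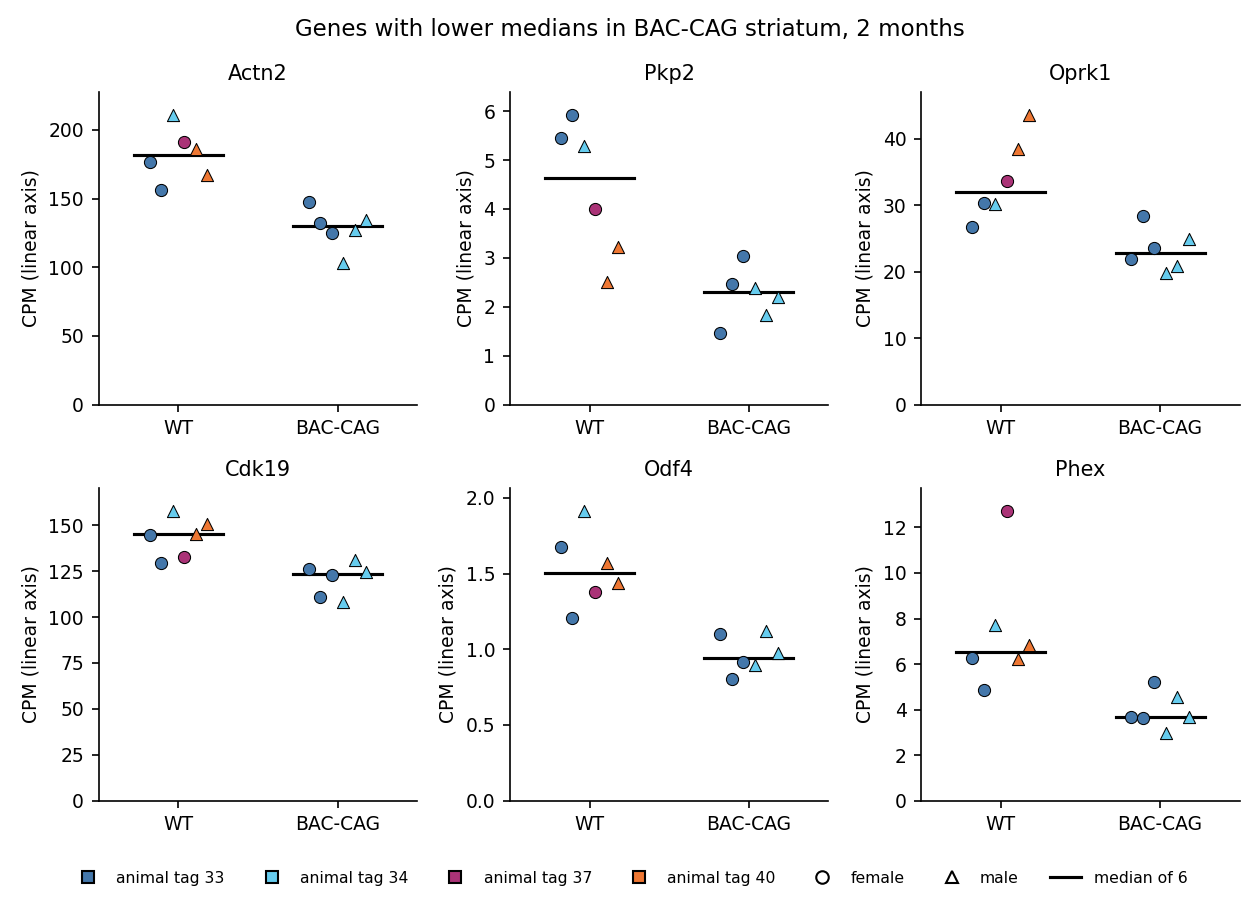
CPM (linear axes from 0) of 6 genes in the 12 striatal libraries at 2 months, 1 point per library, with colour for the animal tag, shape for sex and a bar at the median of 6. Actn2 and Odf4 do not overlap between genotypes, and WT replicates 5 and 6 (tag 40) hold the lowest WT values of Pkp2 and the highest of Oprk1.

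The 6 higher genes with the smallest p were Msantd1, Fam188b2-ps, Pcdhb2, Itih3, Gbx1 and Ypel4. Fam188b2-ps was at 5.23, 5.38 and 5.79 CPM against 3.12, 3.68 and 4.62 CPM, without overlap (log2 change 0.52, SE 0.10, DESeq2 adjusted p = 0.042). Itih3, a gene of the inter-alpha-trypsin inhibitor family that astrocytes express, was at 40.8, 43.3 and 56.3 CPM against 24.5, 34.8 and 39.4 CPM, also without overlap (log2 change 0.42, SE 0.11). Pcdhb2, a clustered protocadherin, had a log2 change of 0.53 (SE 0.13), Gbx1, a homeobox gene, 0.66 (SE 0.17), and Ypel4 0.24 (SE 0.06). Of these 6 genes, 4 were higher at 6 months and 4 at 12 months, Msantd1 among them at both ages. Over all genes 50.7% were lower at 6 months and 48.9% at 12 months. In 2-month cortex, mostly from the same animals, 5 of 5 tested were higher (median 0.35), as were 5 of 5 in BACHD striatum (median 0.11), Msantd1 among them in each. The medians over all genes were -0.0008 in cortex and -0.003 in BACHD striatum. In striatum at 6 and 12 months Itih3 had -0.10 (SE 0.07) and -0.32 (SE 0.18), Pcdhb2 had -0.05 (SE 0.14) and 0.35 (SE 0.11), and Gbx1 had 0.21 (SE 0.11) and -0.43 (SE 0.24).

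The 64 genes called in 12-month striatum were followed back to 2 months. They were picked by their 12-month test, which tends to enlarge their 12-month values but not their 2-month ones. The gap between the sizes at the 2 ages therefore does not measure a change with age. Of the 46 lower at 12 months 45 were tested at 2 months, and 36 of these were lower (80.0%, against 53.0% of all genes) and 9 higher. Their median log2 change was -0.10 at 2 months and -0.48 at 12 months. An unadjusted p under 0.05 with a lower value was found for 10 of the 45 (22.2%, against 3.06% of all genes), and 2, Actn2 and Odf4, did not overlap (0.212% of all genes). The 10 were Pkp2, Phex, Col6a4, Odf4, Actn2, Igfbp4, Nrep, Zcwpw1, Cdk19 and Sgk3, and of all 45 only Col6a4, a collagen gene, had a value further below 0 at 2 months (-0.82, SE 0.30) than at 12 (-0.57). The count of 36 lay between 29 (females alone) and 37 over all other settings. Of the 18 genes higher at 12 months 17 were tested, and 12 were higher at 2 months (70.6%, against 47.0% of all genes). Their median was 0.55 at 12 months, and 0.06 at 2 months without Msantd1. Among them Ttn, the giant muscle protein titin, had 0.50 (SE 0.16) and Pcdhb3 0.38 (SE 0.13).

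Of the genes with the smallest p at 12 months, a choice that tends to enlarge their 12-month values, several were closer to 0 at 2 months. Penk, the proenkephalin gene of indirect-pathway neurons, was at 1347, 1671 and 1776 CPM in BAC-CAG and at 1396, 1792 and 2106 CPM in WT libraries, with a log2 change of -0.10 (SE 0.10) against -0.72 (SE 0.11) at 12 months. Pcp4, a calmodulin regulator, had -0.11 (SE 0.08) against -0.42 (SE 0.06). Sec14l3, of a lipid-transfer family, had -0.06 (SE 0.19) against -1.15 (SE 0.17). Il33, a cytokine gene that glia express, had 0.30 (SE 0.17) against -0.62 (SE 0.09), though its 2-month value was -0.0036 without the 2 libraries tagged 40, and -0.14 in females and 0.76 in males alone. Fat1, Sbsn and Cd59a had 0.00 (SE 0.07), 0.12 (SE 0.09) and 0.09 (SE 0.12) at 2 months.

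**Figure D3:**
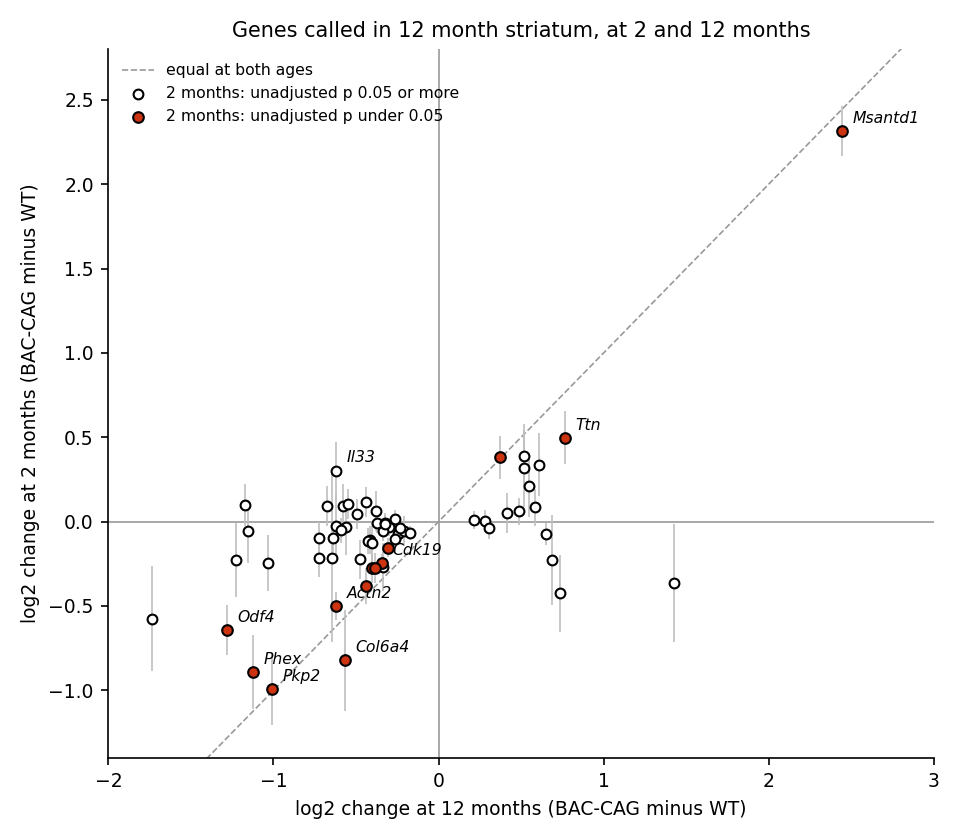
Log2 change (BAC-CAG minus WT) of the genes called in 12-month striatum and tested at 2 months, with the 12-month value on the x axis, the 2-month value with its SE on the y axis and a dashed line where both would be equal. Pkp2, Actn2 and Msantd1 lie near that line, while most genes that are lower at 12 months lie near 0 at 2 months. The genes were picked by their 12-month test, which tends to enlarge the 12-month values.

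The genotype effect at 2 months was tested directly against that at the other ages, in cortex and between sexes. No gene passed in any of the 4 edgeR tests (0.00% called in each). Against 12 months 1458 of 18995 genes had an unadjusted p under 0.05, against 6 months 666 of 18633, against cortex 756 of 18849, and between sexes 1178 of 18666. The test between sexes also carries any difference between animal tags, since WT replicates 5 and 6 are both male. The legacy form of the test also gave 0 calls in each. The log2 change at 12 months minus that at 2 months was -0.63 for Penk (SE 0.16, adjusted p = 0.31), for Sec14l3 -1.10 (SE 0.28, adjusted p = 0.36) and for Il33 -0.93 (SE 0.19, adjusted p = 0.15). Penk, Sec14l3 and Il33 were chosen by their 12-month p, which tends to enlarge these differences. For Pkp2 the difference was -0.02 (SE 0.23) and for Msantd1 0.13 (SE 0.31). In cortex the effect on Cdk19 lay 0.37 above that in striatum (SE 0.07, adjusted p = 0.46) and on Actn2 0.50 above (SE 0.14, adjusted p = 1.0). With the animal as a block over the 11 animals with both tissues, 1 gene was called, Megf11, a transmembrane protein gene with EGF-like repeats, whose effect in cortex lay below that in striatum (difference -0.63, adjusted p = 0.022).

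Among the markers of striatal projection neurons, 33 of 39 tested were lower in BAC-CAG striatum at 2 months (84.6%, against 53.0% of all genes), 0 were called, and 1 did not overlap (Actn2, already named among the lower genes; 0.212% of all genes). The median log2 change of the list was -0.07, against -0.006 over all genes, -0.11 at 6 months and -0.26 at 12 months. Within tags 33 and 34 it was -0.06, with 35 of 39 lower. It was -0.11 without WT replicate 2, -0.03 without BAC-CAG replicate 4, -0.04 without WT replicate 3 or 4, and -0.03 with the cortical score as covariate. The mean log2(CPM + 1) of the list was 8.21 to 8.49 (median 8.42) in BAC-CAG and 8.30 to 8.62 (median 8.44) in WT libraries, which overlapped. In bulk tissue, fewer cells of a type and less RNA per cell cannot be told apart. Ppp1r1b, which encodes the dopamine-regulated phosphatase inhibitor DARPP-32, had a log2 change of -0.07 (SE 0.08). Adcy5, the main striatal adenylyl cyclase, had -0.15 (SE 0.07), Pde10a, a striatal phosphodiesterase, -0.17 (SE 0.09), and Rgs4, a regulator of G-protein signalling, -0.27 (SE 0.14). Rgs4 was at 994 CPM in WT replicate 4 and at most at 633 CPM in every other library. All 6 tested indirect-pathway markers were lower, with a median of -0.10, among them Adora2a (-0.17, SE 0.09), Gpr6 (-0.10, SE 0.09) and Drd2 (-0.06, SE 0.08). Of these 6, 5 are also in other lists. Within tags 33 and 34 5 of 6 were lower (median -0.06), as were 5 of 6 without the 3 libraries that stood apart (median -0.13). With the cortical score as covariate the indirect-pathway median was -0.02. Of 9 direct-pathway markers 6 were higher, with a median of 0.05, but 5 of 9 were lower without the 2 libraries tagged 40 (median -0.02) and without the 3 libraries that stood apart (median -0.01). Pdyn, the prodynorphin gene, was at 95.5, 118.2 and 153.4 CPM against 69.6, 105.7 and 117.6 CPM (log2 change 0.30, SE 0.10), with the 2 lowest WT values in replicates 5 and 6. Tac1, the substance P precursor, had 0.06 (SE 0.07) and Drd1 -0.04 (SE 0.08). Chrm4, also a direct-pathway marker, had -0.14 (SE 0.07).

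Signalling genes had small medians. Of 25 genes of dopamine, cAMP and G-protein signalling 15 were lower (median -0.04), of 33 ion channel genes 25 (median -0.04) and of 22 glutamate receptor genes 14 (median -0.04). The list of 25 shares 14 genes with other lists, projection neuron markers such as Adcy5, Pde10a and Rgs4 among them. Within tags 33 and 34 these medians were -0.06, -0.08 and -0.06, with 21 of 25, 29 of 33 and 16 of 22 lower, and the ion channel median was -0.11 without the libraries tagged 40. Without the 3 libraries that stood apart the glutamate receptor median was 0.03. Grin2b, an NMDA receptor subunit, had a log2 change of -0.23 (SE 0.09), with 777 CPM in WT replicate 4 and at most 588 CPM in every other library. Of 14 GABA receptor genes 9 were higher (median 0.05), with Gabra3 at 0.43 (SE 0.13), but within tags 33 and 34 8 of 14 were lower (median -0.0039). None of these genes was called. Genes of mismatch repair and CAG repeat stability were lower in 12 of 16 (median -0.05), but the median was 0.01 within tags 33 and 34. Fan1, a nuclease that modifies age at onset of the disease, had -0.12 (SE 0.08). Proteins known to bind huntingtin had a median of 0.02 over 19 genes, with Hap1, the huntingtin-associated protein gene, at 0.34 (SE 0.16).

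Interneuron markers were mostly higher. Of 19 tested 18 were higher in BAC-CAG striatum (94.7%, against 47.0% of all genes), with a median log2 change of 0.18, and 8 had an unadjusted p under 0.05 (42.1%, against 3.11%). None was called. Lhx6 and Nkx2-1, transcription factors of interneurons born in the medial ganglionic eminence, had 0.24 (SE 0.08) and 0.22 (SE 0.08), and Lhx8, of the cholinergic lineage, had 0.28 (SE 0.11). Sst, the somatostatin gene, was at 151.9, 162.4 and 195.8 CPM against 126.5, 143.8 and 165.2 CPM (log2 change 0.18, SE 0.08), Npy had 0.12 (SE 0.05), Th, the enzyme that makes the dopamine precursor, 0.24 (SE 0.08), and Pvalb 0.54 (SE 0.30). Chat, the acetylcholine-synthesizing enzyme, had 0.02 (SE 0.06). The interneuron score (mean log2(CPM + 1) of the list) was between 3.66 and 4.12 in BAC-CAG and between 3.38 and 3.84 in WT libraries, which overlapped, with the lowest value in WT replicate 6. Within tags 33 and 34 the median was 0.10 with 13 of 19 higher. At 6 months it was 0.09 and at 12 months -0.18. Markers of cortical neurons were also mostly higher, in 10 of 12, with a sum of 187.5 to 353.7 CPM against 176.8 to 474.4 CPM. Their median was 0.22 with all libraries and -0.17 within tags 33 and 34. That subset keeps WT replicate 2, which held the highest cortical score. The cortical median was 0.87 without WT replicate 2 and 0.78 without the 3 libraries that stood apart. With the cortical score as covariate the interneuron median was 0.18 with 14 of 19 higher. The cortical median was then 0.07, but the score is made of the same genes, so that this value cannot show how cortical RNA differed. Without BAC-CAG replicate 4 the interneuron median was 0.11.

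Neuropeptide and granin genes were higher in 13 of 18 (72.2%, against 47.0% of all genes, median 0.17). Of these, 6 had an unadjusted p under 0.05 (33.3%, against 3.11%). Among the 6, Pdyn is also a projection neuron marker and Crh an interneuron marker. Chga and Scg2, which encode granins of dense-core vesicles, had 0.23 (SE 0.07) and 0.22 (SE 0.07), with the lowest values of both in WT replicates 5 and 6. The list shares 10 genes with other lists, and within tags 33 and 34 it was split at 9 and 9 with a median of 0.02. Immediate early genes, which neuronal activity induces, were lower in 12 of 14 (median -0.25), and in 14 of 14 within tags 33 and 34 (median -0.36). Fos was at 7.02, 11.6 and 27.8 CPM against 8.77, 23.1 and 36.6 CPM, and Npas4 had a log2 change of -0.56 (SE 0.19). Npas4 was at 89.5 and 85.2 CPM in WT replicates 5 and 6 (tag 40), and at most at 46.6 CPM in every other library. The median of the list was -0.67 in males alone and 0.19 in females alone. The males include WT replicates 5 and 6, while all BAC-CAG males are tagged 34, so that sex and tag are not separated here. The list median was -0.13 without BAC-CAG replicate 4, -0.16 without BAC-CAG replicate 5, -0.14 without WT replicate 3 and -0.39 without BAC-CAG replicate 3. The score overlapped between genotypes, at 4.52 to 5.89 against 4.73 to 5.85, with the lowest value in BAC-CAG replicate 4. The highest WT score was that of WT replicate 3, the only WT male within tags 33 and 34.

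Of 16 unfolded protein response genes 14 were higher (median 0.09), of 78 nuclear-encoded respiratory chain genes 64 (median 0.03) and of 81 ribosomal protein genes 61 (median 0.06). The medians within tags 33 and 34 were 0.01, 0.03 and 0.04. Ddit3, the stress-response factor CHOP, had 0.12 (SE 0.04), Ndufa11, a subunit of complex I, 0.13 (SE 0.04), and Rpl14, of the large ribosomal subunit, 0.17 (SE 0.05). Clustered protocadherin genes were split, 30 lower and 26 higher of 56 (median -0.02), with 6 of the higher and 4 of the lower at an unadjusted p under 0.05. Proteasome, autophagy, Trp53 target, heat shock, circadian, neurotrophin and mitochondrially encoded genes had medians between -0.05 and 0.04. Within tags 33 and 34 circadian genes were lower in 16 of 17 (median -0.09) and heat shock genes in 12 of 15 (median -0.06), the neurotrophin median was -0.01, and 38 of 56 protocadherin genes were lower (median -0.06). In that subset WT replicate 3 was the only WT male, and it held the highest circadian score of all libraries (6.63). No gene of these lists was called.

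Myelin, microglial and choroid plexus markers differed in ways that rested on a few libraries. All 21 myelin and oligodendrocyte markers were lower in BAC-CAG striatum (median -0.36), 0 of them called. They summed to 6599 to 10257 CPM in BAC-CAG and to 7488 to 21311 CPM in WT libraries. Without the 2 WT libraries tagged 40 the median was 0.10 and 20 of 21 were higher, and within tags 33 and 34 it was 0.10 with all 21 higher. Microglial markers were lower in 19 of 22 (median -0.14) with all libraries and had a median of 0.02 without those tagged 40. Fcrls had the largest difference among them (-1.88, SE 0.59), at 1.52, 1.73 and 2.40 CPM against 1.46, 4.70 and 17.7 CPM. Oligodendrocyte precursor markers went from -0.12 to 0.05 and cholesterol synthesis genes from -0.10 to 0.04 without those libraries. All 11 choroid plexus markers tested, of 15, were higher (median 1.91). They summed to 35.7 to 1614 CPM in BAC-CAG and to 46.2 to 107.2 CPM in WT libraries, and without the 3 libraries that stood apart the median was -0.38. Astrocyte, endothelial and mural cell markers had medians of -0.02, -0.07 and -0.07, and within tags 33 and 34 of 0.04, -0.01 and 0.04.

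**Figure D4:**
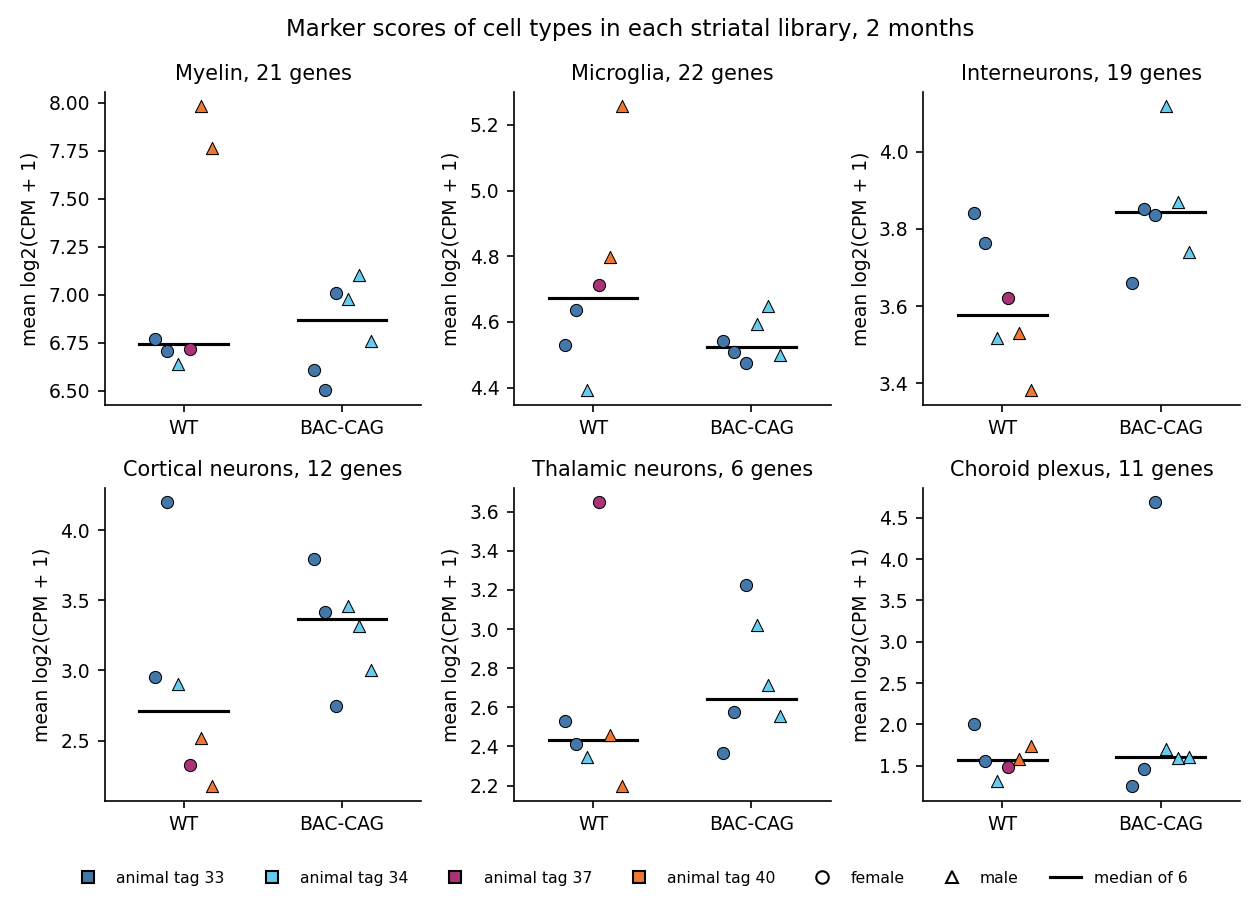
Marker scores of 6 cell types, as mean log2(CPM + 1) on axes that do not start at 0, in the 12 striatal libraries at 2 months, with colour for the animal tag, shape for sex and a bar at the median of 6. WT replicates 5 and 6 (tag 40) are at 7.98 and 7.76 in the myelin score, BAC-CAG replicate 3 is at 4.69 in the choroid plexus score and WT replicate 4 at 3.65 in the thalamic score.

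**Figure D5:**
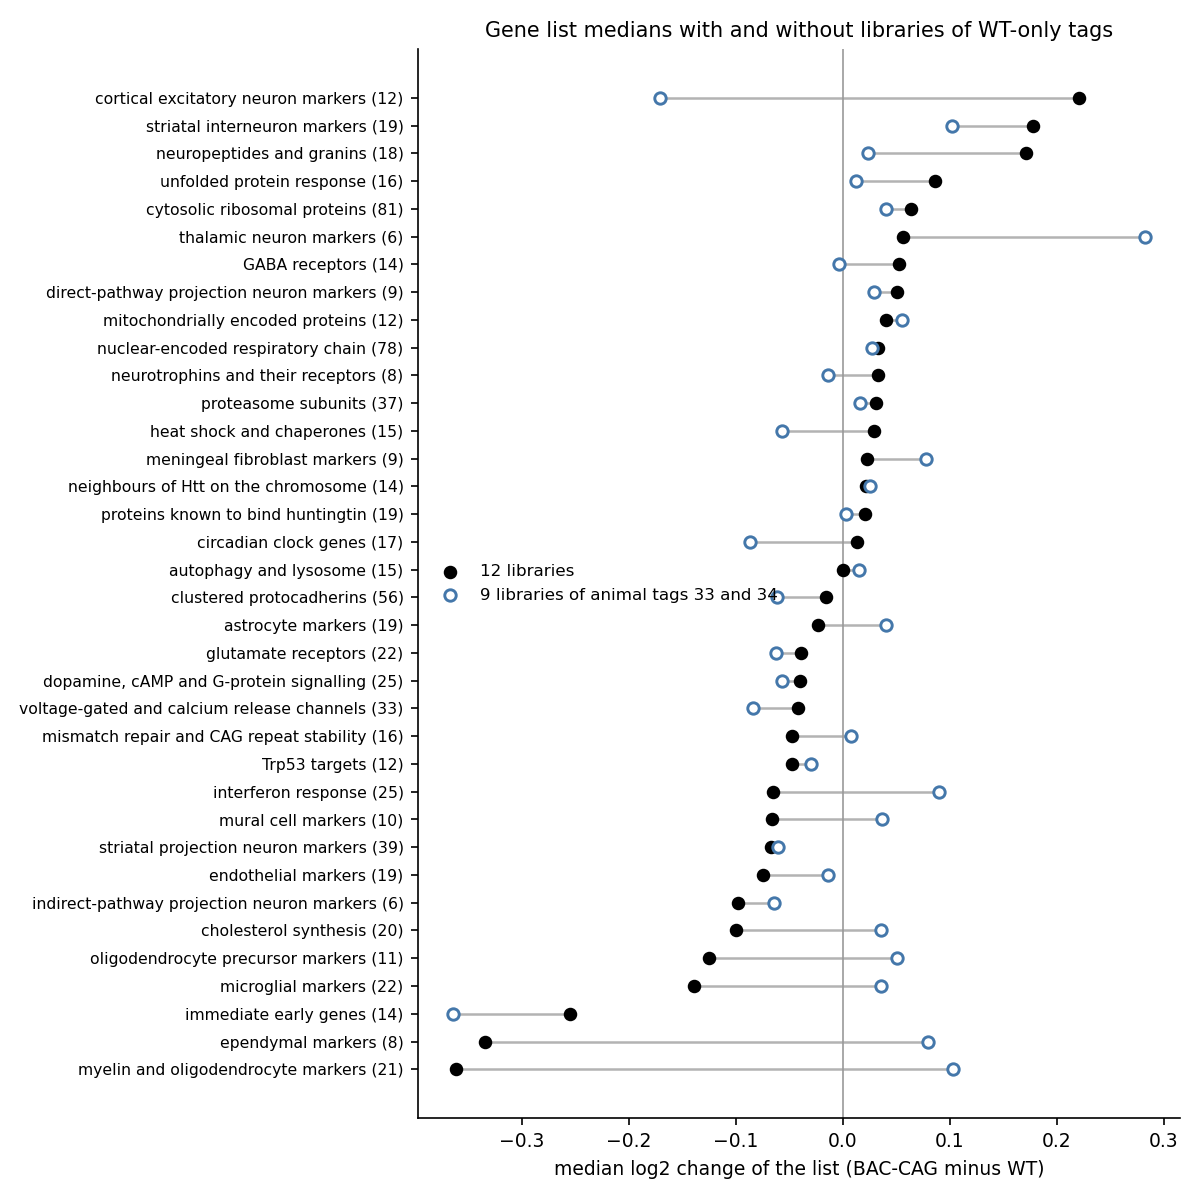
Median log2 change (BAC-CAG minus WT) of each gene list at 2 months over all 12 libraries (filled) and over the 9 libraries of tags 33 and 34 (open), with the number of genes tested in brackets and the choroid plexus list left out. The projection neuron list is at -0.07 and -0.06, the myelin list moves from -0.36 to 0.10 and the cortical neuron list from 0.22 to -0.17. The 9 libraries include WT replicate 2, which held the highest cortical neuron score.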

How the data were processed

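The libraries were strand-specific TruSeq preparations of total RNA according to the labels' protocols. What the authors deposited are raw counts per gene, and the submitters' processing notes name STAR, HTSeq and GRCm38 (mm10), with versions not given in the sources used here. Columns were linked to samples through the animal tag in the titles. Of 48795 genes 48349 were found in GENCODE vM21.

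Counts were tested with edgeR 4.0.16 (R 4.3.3), TMM factors, the filterByExpr filter and sex as covariate, two-sided, with Benjamini-Hochberg adjustment over all tested genes and a threshold of 0.05. The newer quasi-likelihood method was used. This version defaults to the legacy method, which was run as an alternative and also called 1 gene. The SE is the size of a log2 change over the root of its F value. CPM used TMM factors, and scores a pseudocount of 1. The fit was tested on simulated data. DESeq2 1.42.0 (78 genes without adjusted p), limma 3.58.1 and sva 3.50.0 gave alternatives. By the labels, group members came from separate animals, and no 2 libraries agreed within sampling noise.

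Striatum and cortex of 11 animals were paired by tag. Their deviations from group means correlated with a median of 0.101 (between -0.005 and 0.502).

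Members and lists were chosen with earlier results of these data known. Named genes were Htt, Msantd1, genes called by edgeR or DESeq2, the 6 rises and 6 falls with the smallest p (mean of at least 1 CPM, no predicted genes), the 12 smallest p at 12 months, up to 4 genes per list, Htt neighbours and defining markers. The other genes named among the 12-month calls were chosen after their values were seen.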

Additional observations from a re-analysis of the deposited data

Results flagged for a closer look

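Of 116 groups of 6 library values checked, 6 had 1 library far from the other 5 by Dixon's criterion, which chance alone does in about 1 of 20 groups. Pcdhb2 was at 6.07 CPM in WT replicate 1, above the other WT libraries. Penk was at 1347 CPM in BAC-CAG replicate 4, below the other BAC-CAG libraries, and the same library was lowest among BAC-CAG libraries in the direct-pathway score (5.79) and the circadian clock score (6.22). The thalamic score was 3.65 in WT replicate 4, and the choroid plexus score was 4.69 in BAC-CAG replicate 3.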

How the results depend on the processing

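Of 27 alternatives for the count of called genes 26 gave 1 gene, Msantd1 each time, among them limma-voom, RLE factors, no filter, a threshold of 0.1, each sex alone, marker scores as covariates and leaving out each library in turn. DESeq2 gave 6. The animal as a block in the tissue contrast gave 1 called gene in place of 0, and no other paired analysis was possible because the animals of the genotypes and ages differ. Of the 12-month genes named, Pcp4, Il33, Sec14l3, Fat1, Sbsn and Cd59a changed sign at 2 months under some settings and Penk under none of 26. Pcp4 was 0.027 in females alone. Il33, at 0.30 with all libraries, was -0.14 in females alone and -0.0036 without the libraries tagged 40, but 0.76 in males alone and 0.48 without the 3 libraries that stood apart. Sec14l3 was 0.25 in males alone, 0.076 without the 3 libraries that stood apart and between -0.16 and 0.046 when 1 library was left out. Fat1 was -0.022 with limma-voom, -0.041 with the cortical score as covariate, -0.051 within tags 33 and 34, -0.029 in males alone, -0.033 without the 3 libraries and between -0.059 and 0.048 with 1 left out. Sbsn was -0.026 within tags 33 and 34. Cd59a was -0.024 within tags 33 and 34, -0.13 in males alone, -0.083 without the 3 libraries and between -0.0090 and 0.15 with 1 left out. The cause was not tested. The count of 12-month genes lower at 2 months lay between 32 and 37 with 1 library left out. The 2 fits without chosen libraries were added after the data had been seen. At the lowest depth, 31951552 counts, a gene near 1 CPM such as Odf4 rests on far fewer counts than Actn2.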

Other observations

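Meningeal fibroblast markers were split, 5 higher and 4 lower of 9 (median 0.02), with Dcn, a matrix proteoglycan gene, at 0.25 (SE 0.11) and Col3a1, a fibrillar collagen gene, at -0.45 (SE 0.25). Ependymal markers were lower in 7 of 8 (median -0.33), with Foxj1, the regulator of motile cilia, at -0.43 (SE 0.26), and their median was 0.08 within tags 33 and 34. Interferon response genes were lower in 22 of 25 (median -0.06), and 17 of 25 were higher within tags 33 and 34 (median 0.09). None of these genes passed edgeR's test.

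Rpl29 and Rps2, ribosomal protein genes, had log2 changes of -2.61 (SE 0.75) and -1.54 (SE 0.55). Both were low in the BAC-CAG libraries, at 0.654 to 1.35 CPM and 2.33 to 3.31 CPM, and ranged from 1.12 to 23.0 CPM and from 2.42 to 29.8 CPM in WT libraries. Rpl29 was high in WT replicates 2 and 4 (9.19 and 23.0 CPM) and so was Rps2 (14.1 and 29.8 CPM), 2 of the libraries that stood apart, while the other 4 WT libraries were at most at 1.31 and 3.36 CPM. Genes of this family share sequence with many pseudogenes, so that their counts are uncertain.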
